A study of Mus musculus with 6 samples.

Results

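The potassium channel genes of the adult mouse optic nerve are described here in nerves from control animals and from animals in which Nf1 was targeted in mature oligodendrocytes. Members were the rows whose symbol starts with Kcn, continues in lower case letters and ends in a number, 92 of 24062 gene symbols in the deposited counts. They comprise 40 voltage-gated genes, 15 inward rectifier genes, 14 two-pore genes, 8 genes of the calcium-activated group and 15 auxiliary subunit genes, assigned by the letters of the symbol. The rows Kcnmb4os1, Kcnd3os, Kcnq1ot1, Kcnrg and Kcne1l lie outside that pattern and were not members. The mutant group held 3 libraries of the genotype PlpCreERT2;Nf1flox/flox, in which a tamoxifen-inducible Cre recombinase is driven by a Plp promoter that is active in oligodendrocytes. The control group held 3 libraries without the Cre, namely Nf1flox/flox in control library 1 and Nf1flox/+ in control libraries 2 and 3. All animals were given tamoxifen at an age over 2 months and their nerves collected 1 month after it. The nerve also contains astrocytes, microglia, vessels and meninges, which the counts do not separate. The labels name no animal for a library. The p-values therefore rest on the spread among libraries, part of which may be technical.

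Potassium channels let potassium ions leave or enter a cell through a selective pore. Voltage-gated channels open on depolarization and end the action potential, and in myelinated axons the Shaker-type subunits Kcna1 and Kcna2 sit beneath the myelin next to the paranodes, whereas Kcnq3 sits at the nodes of Ranvier. Inward rectifiers hold the resting potential, and Kcnj10 takes up potassium that active axons release into the space around astrocytes and oligodendrocytes. Two-pore channels carry the background leak current, calcium-activated channels open on a rise in calcium, and auxiliary subunits bind pore-forming subunits and change their traffic and gating.

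Library depth was 13555756 to 23662698 counts. CPM values below are counts scaled to a common library size after edgeR's TMM scaling, and RPKM values are the same per kilobase of exon. Nf1 was at 377 ± 35 CPM over the controls and 321 ± 104 CPM over the mutants (SD, 3 libraries each), with a log2 fold change of -0.23 (edgeR, SE 0.28, adjusted p 0.703). Since reads were summed over all exons, the floxed part is not seen apart and this value does not check the genotype. Genes of myelin and mature oligodendrocytes were at 6807 and 5689 summed CPM in mutant libraries 1 and 3 but at 39819 in mutant library 2 and 30972 to 32618 in the controls, over 20 genes. Across genes, log2 (CPM + 1) of mutant library 2 had a Pearson r of 0.954 to 0.962 with the controls and of 0.924 and 0.910 with mutant libraries 1 and 3, so it was nearer to the controls than to its own group. The label of this library could not be checked from the counts, and the results that turn on it are also given without it. Xist had 2.87, 3016 and 1.41 CPM in control libraries 1, 2 and 3 and 2076 to 3611 CPM in the mutants, so sex markers differed within the controls and were of 1 kind in the mutants.

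The 200 bases before the RefSeq transcription start are shown for 4 members. Kcnj4 and Kcnip2 are those whose calls below held without each of the 6 libraries, though Kcnj4 was tested only through its mutant counts. Kcnj10 and Kcnj13 are the members with the highest level per length in the controls. Capitals mark matches on either strand to 4 short motifs. These are the GC box, searched as GGGCGG, the box named for its letters CCAAT, the TATA box, searched as TATAAA, and the letters GGACAGC, which are part of the RE1 element bound by the repressor REST.
Kcnj4 (GRCm38.p6, chr15:79505242-79505441, minus strand): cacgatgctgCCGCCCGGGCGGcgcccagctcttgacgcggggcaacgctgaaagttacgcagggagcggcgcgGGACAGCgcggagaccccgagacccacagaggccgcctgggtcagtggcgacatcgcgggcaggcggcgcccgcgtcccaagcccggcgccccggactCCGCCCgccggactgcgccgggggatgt
Kcnip2 (GRCm38.p6, chr19:45816064-45816263, minus strand): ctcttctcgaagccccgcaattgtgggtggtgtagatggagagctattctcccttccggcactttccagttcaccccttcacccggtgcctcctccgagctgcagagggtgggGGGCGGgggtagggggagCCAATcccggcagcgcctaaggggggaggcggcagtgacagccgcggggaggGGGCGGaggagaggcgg
Kcnj10 (GRCm38.p6, chr1:172341010-172341209, plus strand): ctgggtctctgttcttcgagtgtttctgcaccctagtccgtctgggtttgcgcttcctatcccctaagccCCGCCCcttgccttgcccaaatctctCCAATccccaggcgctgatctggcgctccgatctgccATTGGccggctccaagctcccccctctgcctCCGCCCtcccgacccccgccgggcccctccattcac
Kcnj13 (GRCm38.p6, chr1:87394730-87394929, minus strand): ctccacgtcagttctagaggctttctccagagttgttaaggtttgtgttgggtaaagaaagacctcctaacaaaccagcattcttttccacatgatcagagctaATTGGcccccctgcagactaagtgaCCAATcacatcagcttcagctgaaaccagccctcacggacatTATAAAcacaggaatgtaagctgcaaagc
The promoters of Kcnj4 and Kcnip2 have 31 and 13 CG pairs in these 200 bases and that of Kcnj10 has 12, whereas that of Kcnj13 has 2 and carries a TATA box whose first base lies 29 bases before the start. In Kcnj4 the GGACAGC match begins 126 bases before the start, and the pair of GC boxes at 190 and 184 bases adjoin without overlap. Over the 250 bases before the start, a GC box was found in 10 of 15 (66.7%) promoters of members that rose, 17 of 40 (42.5%) of tested members that did not pass and 7345 of 16749 (43.9%) of all genes. The letters GGACAGC were found in 3 of 15 (20%), 5 of 40 (12.5%) and 956 of 16749 (5.71%) of the same sets. The windows of these sets also differed in base content, with a median of 65.2%, 59.4% and 55.6% GC and of 16, 8 and 10 CG pairs. A TATA box was found in 2 of 67 (2.99%) member promoters and 2008 of 16749 (12%) of all, and a CCAAT box in 20 of 67 (29.9%) and 6022 of 16749 (36%). The cyclic AMP response element (TGACGTCA) and the Egr site (GCGTGGGCG) were found in 0 of 67 member promoters each, against 2.05% and 0.722% of all, and the AP-1 site (TGACTCA) in 1 of 67 (1.49%), against 4.09%. Of the 92 members, 67 had a promoter entry on the deposited chromosome and strand. These counts describe letters in a window and were not tested.

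In control nerves the family was led by genes known from glia, epithelia and myelinated axons. Kcnj10, the main inward rectifier of astrocytes and oligodendrocytes (chromosome 1, 172341210 to 172374085), had the highest level per length, 97.7, 94.2 and 86.9 RPKM in control libraries 1, 2 and 3. Kcnj13, an inward rectifier known from pigment epithelium and choroid plexus (chromosome 1, 87386284 to 87394729), followed at 44.5, 58.9 and 39.4 RPKM, and Kcna1 (chromosome 6, 126636463 to 126645801) at 53.1, 48 and 34 RPKM. Kcnj10 was above both in each control, whereas the ranges of Kcnj13 and Kcna1 overlapped. Next came Kcna6, another Shaker-type subunit, at 20.2 ± 0.403 RPKM (SD, n = 3), Kcnip3 at 17.2 ± 3.21 RPKM, the mechanosensitive leak channel gene Kcnk2 at 16.3 ± 1.73 RPKM, the sodium-activated channel gene Kcnt1 at 15.4 ± 1.87 RPKM, Kcnq3 at 15.1 ± 5.13 RPKM and the leak channel gene Kcnk1 at 13 ± 2.04 RPKM. From Kcna6 to Kcnk1 the control range of each gene overlapped that of the next. Kcnj10, Kcnj13 and Kcna1 together made up 41.5%, 41.5% and 34.1% of the summed RPKM of the family in control libraries 1, 2 and 3. In mutant libraries 1, 2 and 3 the same genes made up 11.6%, 27.7% and 14.3%, below every control. A mean of at least 1 RPKM was reached by 52 of the 92 members in controls and 66 in mutants, and a mean of at least 10 RPKM by 14 and 31.

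**Figure D1:**
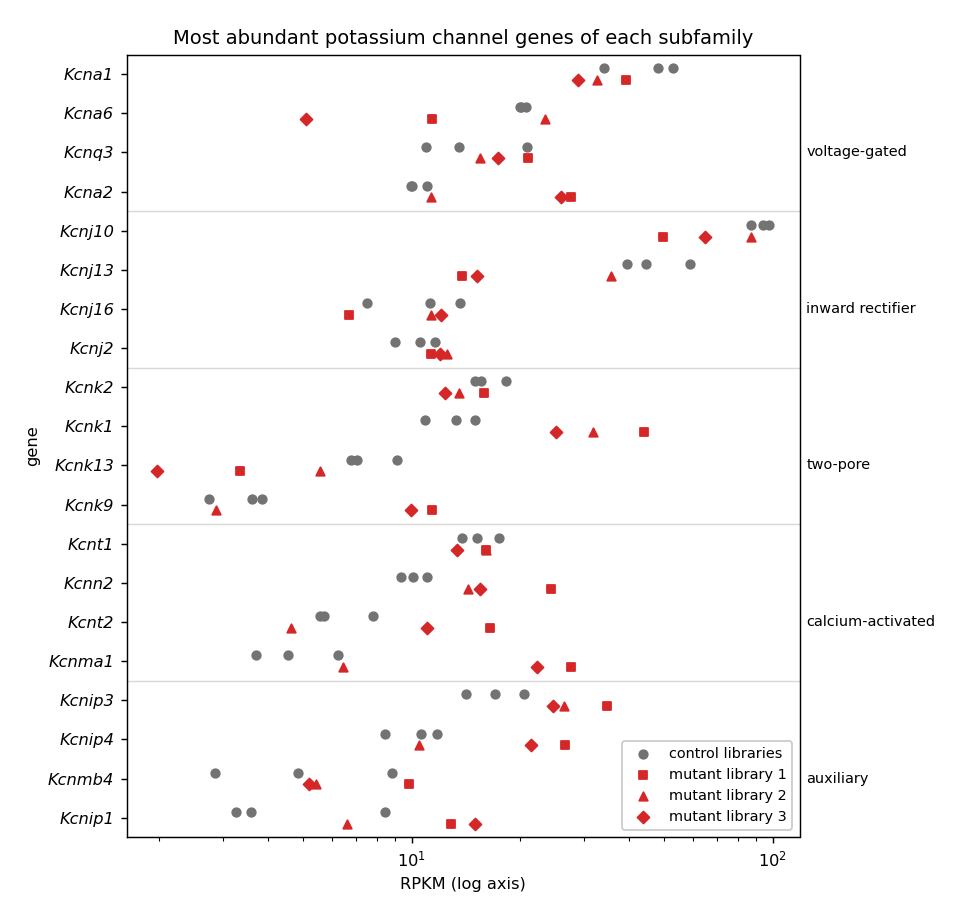
Levels per length (RPKM, log axis) of the 4 members of each subfamily with the highest control mean. Grey circles are the 3 control libraries and red symbols the 3 mutant libraries, 1 row per gene; Kcnj10 is highest in controls, at 86.9 to 97.7 RPKM, and all mutant values of Kcnk1 lie above the controls.

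Between the groups, 21 potassium channel genes rose in the mutant libraries and none passed in the other direction. They include Kcna4, Kcnb2, Kcnd2, Kcnf1, Kcng3, Kcnh1, Kcnh3, Kcnh4, Kcnh5, Kcnh7, Kcnq5, Kcns2, Kcnv1 among voltage-gated genes, the inward rectifier gene Kcnj4, the two-pore gene Kcnk1, the calcium-activated gene Kcnn3, and the auxiliary genes Kcnab1, Kcnab2 and Kcnip2. These are 21 of 79 tested members, 26.6%, where 2.95% of all 16315 genes tested rose and 0.337% fell (edgeR quasi-likelihood test, Benjamini-Hochberg adjusted p under 0.05 over all genes). The count of 21 was 2 to 8 when any 1 library other than mutant library 2 was left out, 41 without mutant library 2, and 0 when Xist, a marker of female samples, was a covariate. In the same fits the genes of the whole transcriptome that rose were 49 to 192, 2226 and 0, against 482 with all libraries. DESeq2 called 31 members higher and 0 lower (all genes 6.45% and 2.72%), and limma-voom 16 and 0 (all genes 2.56% and 0.539%). At an unadjusted p under 0.05, 40 members were higher and 2 lower, where the shares over all genes tested were 11.2% and 8.02%. The median log2 fold change was 0.92 over tested members and -0.00170 over all genes tested, with 60 members above 0 and 19 below. Groups did not overlap in 34 members that were higher in mutants and 4 that were lower, where the shares over all genes tested were 12.5% and 11.5%. All 21 members that rose were higher in each mutant library than in any control. They were called from these same libraries, so this is a description. Of the tested members, 8 had under 3 controls at the level of the filter on low counts. Kcnj4 and Kcng4 had 0 such controls and passed the filter through the mutants alone. Kcnh3, which rose, had 1 control and 3 mutants at that level. The 13 untested members had at most 19 counts in a library.

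**Figure D2:**
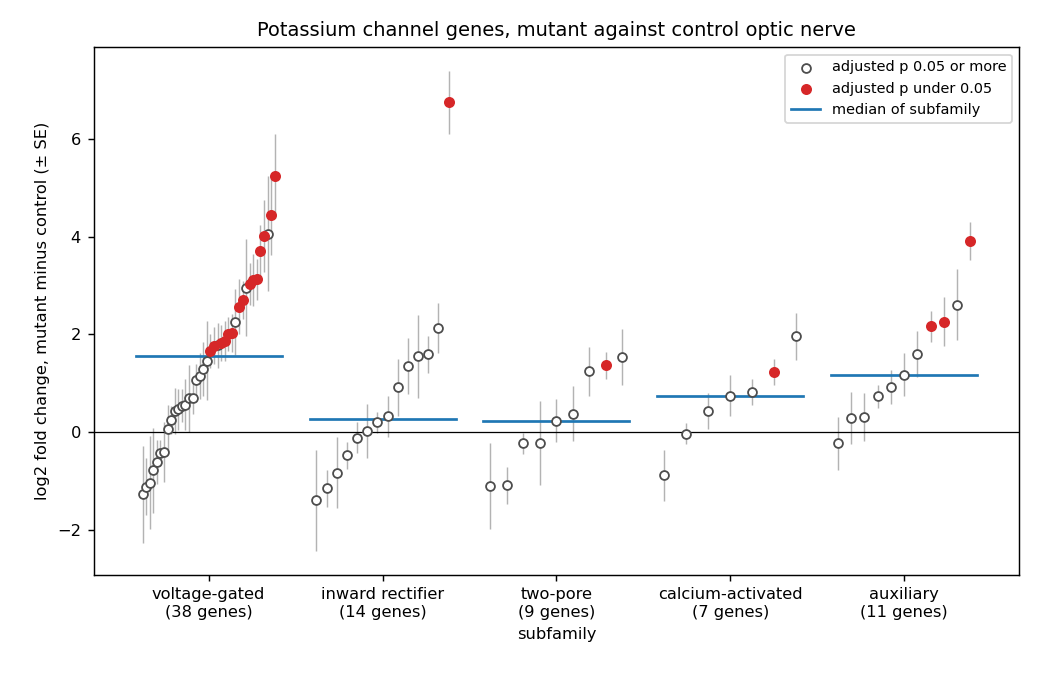
Log2 fold change, mutant minus control, of the 79 tested members by subfamily, with standard errors. Red points passed the adjusted p threshold of 0.05 and open points did not; blue lines are the subfamily medians, 1.57 for voltage-gated and 0.24 for two-pore genes.

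Some markers of neurons were also higher. Of 20 genes of a neuron list 6 rose and 0 fell, where 2.95% of all genes tested rose and 0.337% fell. The list summed to 1599 to 2478 CPM in controls and 3253 to 10362 CPM in mutants. Of the genes that did not pass, Snap25, Nefl, Nefm, Slc32a1 and Eno2 lay above all controls in each mutant. Tubb3, Map2, Nefh, Stmn2, Gap43, Syp, Gria1, Slc17a7 and Elavl4 overlapped between groups. Of 15 genes of a striatal projection neuron list 13 rose, with 347 to 387 summed CPM in controls and 2133 to 3152 in mutants. No gene of either list was at 0 in all libraries. Of 15 genes of photoreceptors and bipolar cells 1 of 10 tested rose, Rcvrn, and the list summed to 140.1 to 161 CPM in controls and 156 to 365 in mutants, mostly from Prkca. Of 8 retinal ganglion cell genes 0 of 5 tested passed, with sums of 116 to 159.9 and 153 to 379 CPM, and Pou4f3 was at 0 in all libraries. The mutant sums were mostly from Thy1, at 287, 135 and 87.1 CPM in mutant libraries 1, 2 and 3. The median log2 fold change of that list was -0.45, with Rbpms, Sncg and Slc17a6 below 0 and Thy1 and Nrn1 above it. Of 10 early response genes, which neurons switch on with activity, 5 rose, with 43.9 to 89 summed CPM in controls and 199.5 to 600.4 in mutants. No gene passed in the lists of oligodendrocyte precursors, Schwann cells and skeletal muscle, and 1 fell in each of the endothelial and fibroblast lists. Without mutant library 2, 16 of 20 neuron, 14 of 15 striatal neuron and 9 of 10 early response genes were higher. There 9 of 12 precursor, 10 of 12 endothelial, 12 of 12 fibroblast, 10 of 12 pericyte and 2 of 6 tested Schwann cell genes were lower. Of the precursor and Schwann cell genes, 1 each was higher. In that comparison 13.2% of all genes tested were higher and 13.8% lower. The part of these cells and genes in the rise of potassium channel genes was not tested. In these bulk counts, differences in tissue collected, in cells of a type and in RNA per cell cannot be told apart.

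Voltage-gated genes held most of the members that rose, 15 of 38 tested (39.5%), where 2.95% of all genes tested rose. The same share of all genes stands beside the counts of smaller groups below. Among the Shaker-type Kcna genes, which form channels of the axon and its terminals, 1 of 6 tested rose. Kcna4, which carries a rapidly inactivating current (chromosome 2, 107290589 to 107298504), had control values of 6.49, 4.89 and 7.30 CPM and mutant values of 70.1, 16.8 and 74.6 CPM. The highest control was below the lowest mutant library, and the log2 fold change was 3.11 (edgeR, SE 0.53, adjusted p 0.0180). Kcna1, Kcna2 and Kcna6 did not pass, and the counts do not show which cells their transcripts came from. Kcna1 had control values of 476, 431 and 305 CPM and mutant values of 351, 293 and 259 CPM, so the groups overlapped (log2 fold change -0.42 (edgeR, SE 0.26, adjusted p 0.417)). Kcna2 (chromosome 3, 107101567 to 107115005) had control values of 128, 115 and 116 CPM and mutant values of 320.1, 131 and 299.7 CPM. Its mutant values lay above the controls, mutant library 2 only just, and its log2 fold change was 1.06 (edgeR, SE 0.33, adjusted p 0.130). Kcna6 had control values of 117, 121 and 116 CPM and mutant values of 66.4, 137 and 29.7 CPM. Mutant libraries 1 and 3 were below the narrow control range and mutant library 2 above it (log2 fold change -0.61, adjusted p 0.509). Kcna3, Kcna5 and the untested Kcna7 and Kcna10 are the other members of this group. Kcna3 was at 0.57 and Kcna5 at 2.25, and neither passed.

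Kcnb2, a gene of delayed rectifiers of neuronal cell bodies, rose. Kcnb2 (chromosome 1, 15312452 to 15714214) had control values of 8.87, 12.2 and 10.1 CPM and mutant values of 46.5, 22.6 and 56.2 CPM, a log2 fold change of 2.01 (edgeR, SE 0.36, adjusted p 0.0225). Mutant library 2 was the lowest of the mutants and still above every control. The partners of these channels include electrically silent subunits, which form no channel alone and alter Kcnb channels when they join them. Of 10 such genes 4 rose. Kcnf1 (chromosome 12, 17172100 to 17176888) had control values of 1.04, 3.53 and 7.34 CPM and mutant values of 93.3, 22.7 and 78.3 CPM, a log2 fold change of 4.02 (edgeR, SE 0.73, adjusted p 0.0246). Kcnv1 (chromosome 15, 45106284 to 45114934) had control values of 1.49, 0.746 and 2.32 CPM and mutant values of 71.4, 8.09 and 19.9 CPM, a log2 fold change of 4.44 (edgeR, SE 0.82, adjusted p 0.0250), with mutant library 1 far above the other mutants. Kcns2 went from 1.68 ± 0.226 to 22 ± 13.3 CPM (log2 fold change 3.71, adjusted p 0.00971) and Kcng3 from 1.45 ± 0.472 to 12.7 ± 3.77 CPM (3.13, adjusted p 0.00721). The other silent subunit genes ran from -1.27 for Kcns1 to 4.06 for Kcng1 and did not pass. Kcng1 had only 1, 5 and 13 counts in the controls, and the remaining genes Kcng2, Kcng4, Kcns3 and Kcnv2 gave 1.46, 2.96, -0.40 and -1.03.

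Of the fast Kcnc genes, whose channels allow rapid firing, and the Kcnd genes, whose channels carry the A-type current of dendrites, 1 passed. Kcnd2 (chromosome 6, 21216109 to 21729805) had control values of 28.4, 25.9 and 24.5 CPM and mutant values of 117, 38.7 and 131 CPM, a log2 fold change of 1.86 (edgeR, SE 0.41, adjusted p 0.0461). Kcnc1 was also above all controls in each mutant, at 80.00 ± 47.5 against 23.3 ± 1.94 CPM, but its adjusted p was 0.0742. Kcnc2, Kcnc4, Kcnd1 and Kcnd3 overlapped between groups, with log2 fold changes of 1.29, 0.43, 0.47 and 0.71. All 9 Kcnb, Kcnc and Kcnd fold changes were positive, and Kcnc4 was below 0 without mutant library 1.

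Kcnq genes, which carry the slowly activating M-current that limits repetitive firing, rose in 2 of 5 cases. Kcnq5 (chromosome 1, 21398403 to 21961942) had control values of 9.11, 5.52 and 9.17 CPM and mutant values of 91.7, 30.8 and 72.4 CPM, a log2 fold change of 3.03 (edgeR, SE 0.43, adjusted p 0.00962). It was higher in every mutant library than in any control. Kcnq3, a channel gene of the nodes, had control values of 38.9, 60.1 and 31.6 CPM and mutant values of 60.6, 44.4 and 49.8 CPM, with overlapping groups and a log2 fold change of 0.25 (edgeR, SE 0.28, adjusted p 0.685). The difference between these responses was not tested. Kcnq1 was at -0.77 and did not pass. Exons of Kcnq1 overlap the antisense RNA Kcnq1ot1, and counting without strand cannot separate them.

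The Kcnh genes, of the eag, erg and elk types that are expressed in forebrain neurons, rose in 5 of 8 cases, and all 8 fold changes were positive, except that Kcnh8 was below 0 by limma-voom and without control library 2 or mutant library 3. Kcnh3, an elk gene (chromosome 15, 99224976 to 99242817), had control values of 0.297, 0.0415 and 1.54 CPM and mutant values of 28.8, 16.2 and 27.4 CPM. It was near 0 in the controls, with 6, 1 and 37 counts, so its log2 fold change of 5.24 (edgeR, SE 0.86, adjusted p 0.0166) rests on few control reads, and its exons overlap Mcrs1. Kcnh4, also an elk gene (chromosome 11, 100740378 to 100759778), had control values of 1.09, 1.66 and 2.20 CPM and mutant values of 12, 10.9 and 9.49 CPM, a log2 fold change of 2.70 (edgeR, SE 0.39, adjusted p 0.0109). The mutant values of Kcnh4 lay close together, between 9.49 and 12 CPM. The erg gene Kcnh7 had control values of 6.83, 7.71 and 10.1 CPM and mutant values of 70.1, 12.3 and 63.6 CPM, a log2 fold change of 2.57 (edgeR, SE 0.57, adjusted p 0.0458). The eag genes Kcnh1 and Kcnh5 rose by 1.67 and 1.83 (adjusted p 0.0377 and 0.0353), from 27.2 ± 6.59 to 86.3 ± 39 CPM and from 16.1 ± 4.27 to 57.1 ± 24.2 CPM. Kcnh2, which encodes the erg channel of the heart, Kcnh6 and Kcnh8 overlapped between groups, at 0.54, 0.70 and 0.06.

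Of the inward rectifier genes 1 of 14 tested rose (7.14%, against 2.95% of all genes tested), and the fold changes had both signs. Kcnj4, a strong rectifier gene of forebrain neurons (chromosome 15, 79483714 to 79505241), had control values of 0.0991, 0.207 and 0.0415 CPM and mutant values of 20.1, 9.45 and 9.84 CPM. The controls held 2, 5 and 1 counts and the mutants 373, 125 and 141, and the log2 fold change was 6.74 (edgeR, SE 0.64, adjusted p 0.00161). It had the highest fold change of the 79 tested members, and its size depends on the few control counts. The G protein-gated rectifier genes Kcnj3 and Kcnj6, whose channels answer to neurotransmitter receptors, were higher in each mutant library than in any control without passing. Kcnj3 (chromosome 2, 55437156 to 55595525) had control values of 12.1, 14.6 and 15.4 CPM and mutant values of 48.3, 20.3 and 58.7 CPM, a log2 fold change of 1.60 (edgeR, SE 0.38, adjusted p 0.0585). Kcnj6 had control values of 3.57, 7.22 and 9.00 CPM and mutant values of 38.8, 11.4 and 37.2 CPM, a log2 fold change of 2.14 (edgeR, SE 0.51, adjusted p 0.0606). Kcnj9, of the same group, overlapped between groups at 0.92 (adjusted p 0.435).

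The glial rectifier Kcnj10 did not pass in the comparison of all libraries. It had control values of 528, 509.6 and 469.9 CPM and mutant values of 268, 469.8 and 351 CPM. The groups did not overlap, but mutant library 2 and control library 3 were nearly equal, and the log2 fold change was -0.47 (edgeR, SE 0.27, adjusted p 0.383). Without mutant library 2 it was -0.69 (adjusted p 0.0286) and passed. Kcnj16, which encodes a partner of Kcnj10, had control values of 30.3, 45.3 and 54.6 CPM and mutant values of 27, 45.4 and 48.6 CPM, with overlapping groups and a log2 fold change of -0.11 (edgeR, SE 0.31, adjusted p 0.886). Kcnj13 had control values of 59.98, 79.5 and 53.2 CPM and mutant values of 18.6, 48.1 and 20.5 CPM. All mutant values were below the controls, and the log2 fold change was -1.15 (edgeR, SE 0.38, adjusted p 0.149), or -1.71 (adjusted p 0.000723) without mutant library 2, where it passed. Beside them, the myelin list had 0 of 20 genes lower in the comparison of all libraries and 20 without mutant library 2. The astrocyte list, at 6819 to 7001 summed CPM in controls and 6737 to 8205 in mutants, had 0 of 14 lower in all libraries and 6 lower and 1 higher without mutant library 2. Its median log2 fold change was -0.46 with all libraries, whereas that of the myelin list was -0.94. The same medians were -0.50 and -2.26 without mutant library 2. Without that library 13.2% of all genes tested were higher and 13.8% lower. The part of these cell types in the values of Kcnj10 and Kcnj13 was not tested.

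Rectifier genes of vessels and other tissues showed no call. Kcnj2, a strong rectifier gene, had control values of 63.4, 57.4 and 48.8 CPM and mutant values of 61.8, 68.4 and 65.4 CPM and overlapped (log2 fold change 0.21 (edgeR, SE 0.21, adjusted p 0.639)). Kcnj8, which encodes the pore of the ATP-sensitive channel of pericytes and smooth muscle, had control values of 5.65, 7.17 and 11.3 CPM and mutant values of 6.85, 15 and 2.86 CPM. Its log2 fold change of 0.03 (edgeR, SE 0.56, adjusted p 0.985) was below 0 under upper quartile scaling, total counts and limma-voom. The pericyte and smooth muscle list summed to 604 to 644 CPM in controls and 161 to 542 in mutants. Kcnj11, the other ATP-sensitive pore gene, was at 1.36 and Kcnj12, Kcnj14, Kcnj5 and Kcnj15 at 0.33, 1.55, -0.82 and -1.39, none past the threshold. Kcnj1, a renal channel gene, had 0 counts in the controls and 2 in the mutants and was not tested.

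Among two-pore genes 1 of 9 tested rose (11.1%, against 2.95% of all genes tested). Kcnk1, a weakly rectifying leak channel gene of astrocytes and neurons (chromosome 8, 125995102 to 126030688), had control values of 25.1, 30.6 and 34.5 CPM and mutant values of 102, 73.4 and 58 CPM. All mutants were above all controls, mutant library 2 was not the lowest, and the log2 fold change was 1.37 (edgeR, SE 0.27, adjusted p 0.0331). Kcnk2, whose channel is known from nodes of Ranvier (chromosome 1, 189207930 to 189402273), had control values of 75.2, 64.2 and 61.8 CPM and mutant values of 65.4, 55.6 and 50.9 CPM, with overlapping groups and a log2 fold change of -0.23 (edgeR, SE 0.21, adjusted p 0.613). Kcnk13, a halothane-inhibited leak channel gene of microglia (chromosome 12, 99964499 to 100062682), had control values of 28.3, 21.9 and 21.2 CPM and mutant values of 10.4, 17.3 and 6.14 CPM. Its mutant values were all below the controls, and its log2 fold change of -1.08 (edgeR, SE 0.38, adjusted p 0.169) became -1.51 (adjusted p 0.00499) without mutant library 2. The microglia and macrophage list summed to 821 to 1061 CPM in controls and 418 to 1080.3 in mutants. In that list 0 of 14 genes were lower with all libraries and 9 without mutant library 2, where 13.8% of all genes were lower. The part of these genes in the value of Kcnk13 was not tested. Kcnk5, an acid-sensitive leak channel gene, had control values of 6.88, 10.3 and 6.60 CPM and mutant values of 1.78, 9.14 and 0.279 CPM. Mutant library 2 lay within the control range and the other mutants far below it, so the log2 fold change was -1.10 (edgeR, SE 0.89, adjusted p 0.541) with all libraries and -2.89 (adjusted p 0.00674) without that library. Kcnk9 and Kcnk10 were at 1.25 and 1.54, Kcnk3, Kcnk6 and Kcnk7 at 0.39, 0.24 and -0.22, and none passed. Kcnk4, a mechanosensitive channel gene also known from nodes, was untested, with control counts of 5, 11 and 11 and mutant counts of 19, 2 and 13. Kcnk12, Kcnk15, Kcnk16 and Kcnk18 had 16, 0, 0 and 3 counts in the control group and 24, 4, 1 and 1 in the mutant group.

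Of 7 tested genes of the calcium-activated group 1 rose (14.3%, against 2.95% of all genes tested). Kcnn3, a small-conductance channel gene that shapes the pause after action potentials (chromosome 3, 89520164 to 89672494), had control values of 35, 35 and 31.6 CPM and mutant values of 80.8, 54.4 and 103 CPM. Each mutant was above each control, and the log2 fold change was 1.23 (edgeR, SE 0.27, adjusted p 0.0444). Kcnn2, its close relative on chromosome 18, was also above all controls at 36.8 ± 11.1 against 20.8 ± 1.71 CPM, but did not pass (log2 fold change 0.83, adjusted p 0.142), and its exons overlap A330093E20Rik. Kcnma1, the pore gene of the large-conductance channel (chromosome 14, 23298694 to 24004205), had control values of 29.1, 35.5 and 48.9 CPM and mutant values of 216, 50.6 and 174 CPM. Its mutants lay above the controls, mutant library 2 only just, and its log2 fold change was 1.96 (edgeR, SE 0.48, adjusted p 0.0657). The sodium-activated relatives did not pass. Kcnt1 had control values of 106, 92.3 and 83.9 CPM and mutant values of 98, 97.8 and 81.6 CPM, and its log2 fold change of -0.03 (edgeR, SE 0.21, adjusted p 0.963) was within its error of 0. Kcnt2 was at 0.75, Kcnn1 at 0.44 and Kcnu1, a channel gene of sperm, at -0.87, none past the threshold. Kcnn4, a channel gene of blood and immune cells, was untested, with 38 counts in the control group and 7 in the mutant group.

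Auxiliary subunit genes rose in 3 of 11 tested cases (27.3%, against 2.95% of all genes tested). Kcnip2, a calcium-binding subunit that joins Kcnd channels (chromosome 19, 45792346 to 45816063), had control values of 4.31, 3.40 and 4.69 CPM and mutant values of 74, 32.3 and 80.5 CPM. The lowest mutant library was far above the highest control, and the log2 fold change was 3.91 (edgeR, SE 0.39, adjusted p 0.00203). The related Kcnip1, Kcnip3 and Kcnip4 were at 1.18, 0.73 and 0.92 (adjusted p 0.193, 0.147 and 0.187), and Kcnip3, which also acts as a transcriptional repressor, was above all controls in each mutant. Kcnab genes encode the beta subunits that bind Kcna channels. Kcnab1 (chromosome 3, 65109368 to 65378225) had control values of 15.1, 12.6 and 14.8 CPM and mutant values of 82.3, 37.9 and 70.5 CPM, a log2 fold change of 2.17 (edgeR, SE 0.32, adjusted p 0.0111). Kcnab2, the beta subunit known from the juxtaparanode (chromosome 4, 152390740 to 152477549), had control values of 7.08, 7.84 and 9.09 CPM and mutant values of 73.9, 20.1 and 21.2 CPM, a log2 fold change of 2.26 (edgeR, SE 0.51, adjusted p 0.0491). Kcnab3 was also higher in every mutant, at 2.61, but its adjusted p was 0.0905. Of the beta subunits of the large-conductance channel, Kcnmb2 was at 1.60, the neuronal Kcnmb4 at 0.31 and the smooth muscle Kcnmb1 at -0.22, none past the threshold, and exons of Kcnmb4 overlap Kcnmb4os1. Kcnmb3, untested, had 0 counts in the control group and 17 over the mutants, at least 8.41-fold higher when the control group as a whole is set to a floor of 3 counts. Kcne4, a MinK-related subunit gene, was at 0.30, and Kcne1, Kcne2 and Kcne3 had 8, 9 and 21 counts in the control group and 0, 5 and 6 in the mutant group.

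The size of the rise differed between mutant libraries. Over the 21 members that rose, the median distance from the control mean was 3.04, 1.38 and 2.40 units of log2 (CPM + 0.5) in mutant libraries 1, 2 and 3. Mutant library 2 was the lowest mutant in 19 of the 21, and in 408 of the 482 genes of the whole transcriptome that rose, 84.6%. Kcnk1 and Kcnh4, the exceptions, were lowest in mutant library 3. The median coefficient of variation over tested members was 26.2% in controls and 49.9% in mutants, against 18.2% and 32.9% over all genes tested.

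**Figure D3:**
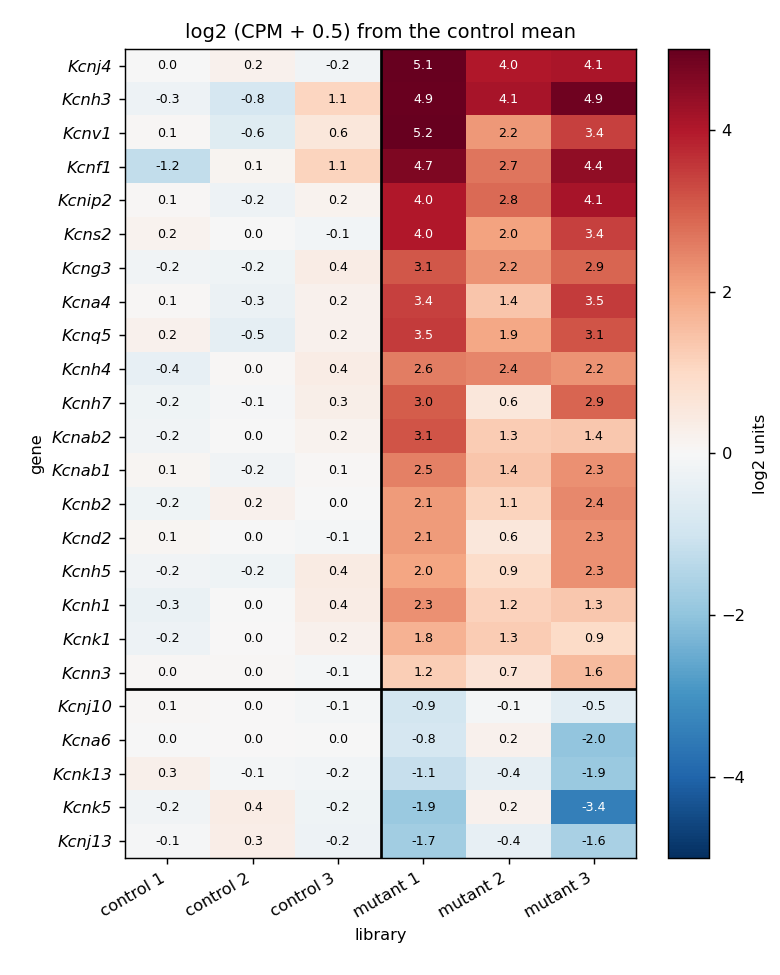
Each cell is log2 (CPM + 0.5) in 1 library minus the mean of the controls, for 19 of the 21 members that rose (above the line) and 5 of the 6 that were lower without mutant library 2 (below it). Red is above and blue below the control mean; mutant library 2 is paler than mutant libraries 1 and 3 in most rows, and all 3 mutants are red in the 19 upper rows.

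Without mutant library 2, 41 members were called higher and 6 lower of 82 tested, where 13.2% and 13.8% of all genes were called. The 41 included all 21 above. The 6 lower genes included Kcnj10, Kcnj13, Kcnk13, Kcnk5 and Kcna6, with log2 fold changes of -0.69, -1.71, -1.51, -2.89 and -1.29. The share of members called lower, 7.32%, was under that of all genes and the share called higher was above it. The number of members that rose was 2, 3 and 5 when control libraries 1, 2 and 3 were left out in turn. Over all genes, 49 of 16660, 76 of 16583 and 111 of 16600 tested rose in the same fits. The number of members was 7 when mutant library 1 and 8 when mutant library 3 was left out. There 160 of 16788 and 192 of 16739 of all genes tested rose, against 482 of 16315 with all libraries. Kcnj4 and Kcnip2 passed without each of the 6 libraries, with largest adjusted p of 0.0295 and 0.0334 (edgeR). Kcnj4 had 0 controls at the level of the filter on low counts, so it was tested only because the mutants were high. Kcng3 and Kcnh4 passed in 4 of those 6 fits, Kcnab1, Kcnh3, Kcnq5 and Kcns2 in 3, Kcnk1 in 2 and the other 12 only without mutant library 2. All 21 fold changes stayed positive in each of the 6 fits. These fits share libraries with the comparison that called the 21, so this too is a description.

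Summed over subfamilies, voltage-gated genes had 1098, 1066 and 967 CPM in control libraries 1, 2 and 3 and 2451, 1179 and 2120.4 CPM in mutant libraries 1, 2 and 3. Auxiliary genes had control sums of 134, 134 and 180.3 CPM and mutant sums of 508.2, 262 and 403 CPM, and genes of the calcium-activated group had control sums of 226, 212 and 228 CPM and mutant sums of 517, 265 and 444 CPM. In these 3 subfamilies every mutant lay above every control, with mutant library 2 nearest to them. Inward rectifier genes, whose sum is mostly Kcnj10, had control sums of 721, 742 and 694 CPM and mutant sums of 541, 705 and 622 CPM, and mutant library 2 lay within the control range. Two-pore genes had control sums of 151, 143 and 139.6 CPM and mutant sums of 213, 172 and 147 CPM, with mutant library 3 inside the control range. Medians of the log2 fold change were 1.57 for voltage-gated, 1.18 for auxiliary, 0.27 for inward rectifier and 0.24 for two-pore genes. For the calcium-activated group, which also holds Kcnt1, Kcnt2 and Kcnu1, the median was 0.75, the value of the sodium-activated Kcnt2. Differences between subfamilies were not tested.

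**Figure D4:**
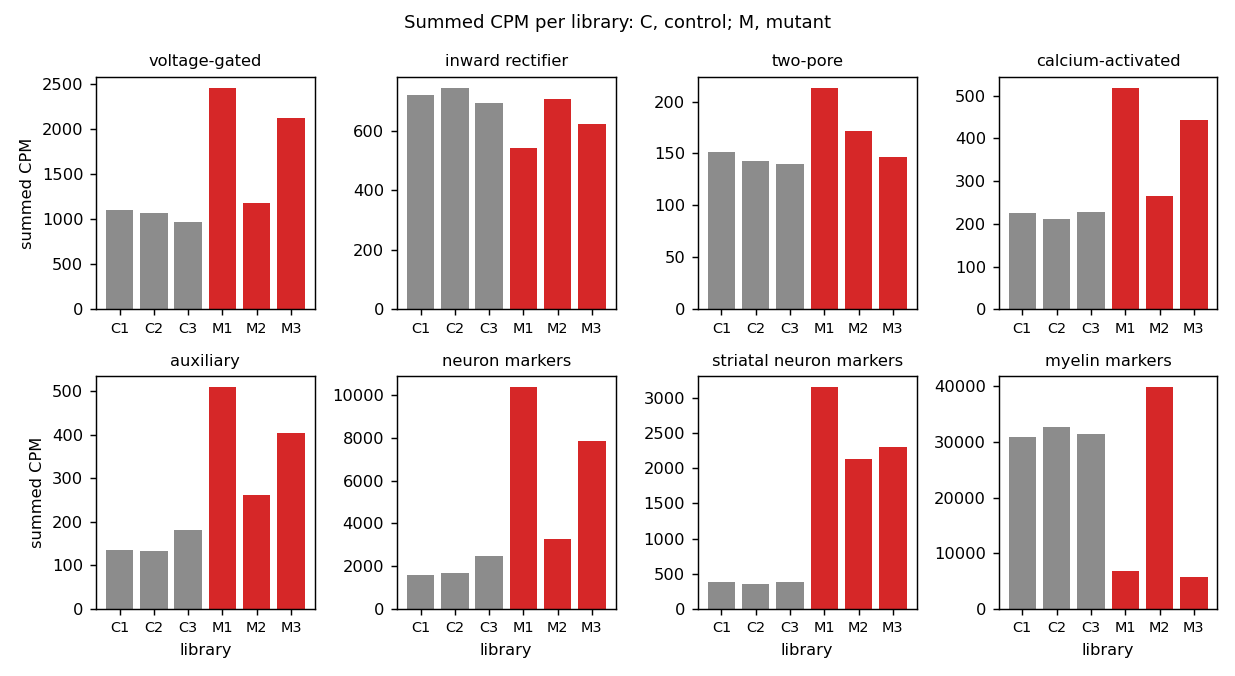
Summed CPM per library of the 5 subfamilies and of 3 marker lists, each panel with its own linear axis from 0; grey bars are control and red bars mutant libraries. The voltage-gated, calcium-activated and auxiliary sums have the order of the neuron markers over the mutants, library 1 highest and library 2 lowest, whereas the myelin markers are lowest in mutant libraries 1 and 3.

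Some members that are neighbours in the genome had fold changes of opposite sign. Kcnj9 and Kcnj10 lie 11946 bp apart on chromosome 1, with log2 fold changes of 0.92 and -0.47. Kcna5, Kcna1 and Kcna6 lie in a row on chromosome 6, 100907 and 62527 bp apart, at 2.25, -0.42 and -0.61. Kcna3 and Kcna2, 63437 bp apart on chromosome 3, were at 0.57 and 1.06, and Kcnj16 and Kcnj2, 38196 bp apart on chromosome 11, at -0.11 and 0.21. None of these genes passed with all libraries, and differences within pairs were not tested. No gene that rose had another member within 200000 bp.

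Of 32 other genes of potassium channel complexes and potassium handling, 3 of 31 tested rose and 0 fell, where 2.95% of all genes rose. Dpp10, which encodes a dipeptidyl peptidase-like partner of Kcnd channels, had control values of 25.1, 20.6 and 29.3 CPM and mutant values of 183, 46.9 and 153 CPM, a log2 fold change of 2.35 (edgeR, SE 0.46, adjusted p 0.0312). Cntnap2, which holds Kcna channels at the juxtaparanode, had control values of 34.1, 42.7 and 50.03 CPM and mutant values of 169, 81.6 and 159 CPM, a log2 fold change of 1.69 (edgeR, SE 0.32, adjusted p 0.0261). Dlg4, a scaffold that clusters Kcna channels and receptors, had control values of 71.7, 57.4 and 77.3 CPM and mutant values of 275, 117 and 224 CPM, a log2 fold change of 1.58 (edgeR, SE 0.33, adjusted p 0.0377). Each of these genes was higher in every mutant library and lost its call without any 1 control and without mutant library 1 or 3. Dlg2, a related scaffold, was higher in every mutant at 1.71 (edgeR, SE 0.39, adjusted p 0.0509) without passing. Some further genes were named after their values were seen. Cntn2, the partner of Cntnap2 that glia also express, overlapped between groups at -0.92 (adjusted p 0.403). Of pump and cotransporter genes, Atp1b2, Atp1b3 and Slc12a7 were at -0.79, -1.03 and -1.18 (adjusted p 0.256, 0.142 and 0.184). Slc12a5, the neuronal potassium-chloride cotransporter gene, was at 1.86 (adjusted p 0.0518), and Aqp4, the water channel gene of astrocyte endfeet, at -0.55 (adjusted p 0.481). The sulfonylurea receptor gene Abcc9, partner of Kcnj8, was at -0.68 (adjusted p 0.314). Without mutant library 2, 13 genes of this list were higher and 10 lower, where 13.2% and 13.8% of all genes were.

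Sex markers are partly confounded with the groups. When the level of Xist (log2 CPM) was added to the model, 0 members and 0 genes of all passed by edgeR, and 32 of 79 members had an unadjusted p under 0.05, as had 7.94% of all genes tested. Control library 2 alone against the mutants, all with high Xist, also gave 0 calls by edgeR, with 28 of 81 members at an unadjusted p under 0.05 and 5.24% of all genes tested. There the median of the log2 fold changes of the 21 members that rose was 2.66 (typical SE 0.77), and 2.57 (typical SE 0.41) with all libraries, and all 21 were positive. They were called from a comparison that held the same libraries, so this is a description.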

How the data were processed

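Optic nerve RNA was measured after NuGEN Ovation amplification and Nextera XT library preparation (labels' protocols). The values the authors deposited are raw counts of fragments per gene, which featureCounts 1.4.6-p4 summed over UCSC mm10 exons from paired reads, ignoring strand, per the file headers, and TopHat is named in the submitters' processing notes. Gene positions are the deposited mm10 ones, and promoter sequences are from RefSeq (GRCm38.p6). Exons of 8 members, Kcnd3, Kcnh3, Kcnip4, Kcnk3, Kcnmb4, Kcnn2, Kcnq1 and Kcnt2, overlap another gene, and their values are uncertain to that extent. All pairs of libraries differed beyond sampling noise (chi-square per degree of freedom at least 48.2). All 24062 genes were fitted with edgeR 4.0.16 in R 4.3.3 (quasi-likelihood F test, TMM, filterByExpr with a minimum count of 10, no covariate), and Benjamini-Hochberg adjustment ran over the 16315 genes tested. Standard errors of log2 fold changes were derived from the F statistics. On simulated counts with 1 dispersion for all genes, the fit recovered 7.46% of 2-fold, 71.6% of 4-fold and 93.9% of 8-fold changes. Of 120 calls there 5 were false. A gene near 2-fold that did not pass may therefore still differ. Alternatives were DESeq2 1.42.0, limma-voom (limma 3.58.1), other scalings and filters, removal of Rn45s, Xist as a covariate, libraries with high Xist only and leaving out each library. The members, marker lists and other potassium genes were chosen with earlier results of these data known. Named were all members past the threshold, the 4 with the highest control RPKM and up to 3 per direction with the smallest p in each subfamily, and members known from axons, glia and vessels; most other members were named too, and some genes are not reported here by name.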

Additional observations from a re-analysis of the deposited data

How the results depend on the processing

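The number of members called stayed within 1.5 times of 21, all higher, under upper quartile scaling (19), total counts (20), size factors of DESeq2 in edgeR (21), limma-voom (16), DESeq2 (31), no filter (26), a filter of 1 CPM in 3 libraries (21) and removal of Rn45s (21). It was 0 with the Xist covariate and 0 among libraries with high Xist, as were the counts over all genes (1295 and 894 genes at an unadjusted p under 0.05) and over other potassium handling genes, all by edgeR; DESeq2 and limma-voom were not run with these settings. With 1 library left out, members called ranged from 2 to 47, all genes called from 51 to 4551 against 537, and other potassium handling genes from 0 to 23 against 3. DESeq2 called 1656 genes in all (1164 higher and 492 lower, against 482 and 55) and 9 of the other potassium genes, and no filter gave 870 and 6. The two-pore median, 0.24, was 0.63 by DESeq2, 0.61 without a filter, -0.0360 with the Xist covariate and 0.52 among libraries with high Xist, and the inward rectifier median was 0.62 and 0.55 under the last 2 settings. With 1 library left out, medians ranged from 0.17 to 0.80 for two-pore and 0.94 to 1.72 for auxiliary genes. The cause of these shifts was not tested. No call was reversed. Genes that changed sign had not passed. Kcnj8 was at -0.0356, -0.0405 and -0.24 under upper quartile, total counts and limma-voom. With the Xist covariate and among libraries with high Xist, Kcnj15 was at 1.59 and 1.59, Kcnmb1 at 0.23 and 0.29, Kcnq3 at -0.20 and -0.22, and Kcnt1 at 0.00219 and 0.00502. With 1 library left out, values ranged from -0.71 to 0.44 for Kcnj8, -0.11 to 0.0783 for Kcnt1, -0.30 to 0.11 for Kcnj16, -0.56 to 0.14 for Kcnmb1 and -0.0494 to 0.82 for Kcnmb4. Members outside the rule for named genes changed sign too. Without mutant library 2, Kcne4, Kcnk6 and Kcns3 were at -0.19, -0.15 and 0.0405. Kcne4, Kcnj12, Kcnk6 and Kcnq1 were at -0.00590, -0.0228, -0.0982 and 0.35 with the Xist covariate and at -0.0710, -0.0692, -0.0927 and 0.37 among libraries with high Xist. Kcnh8 was at -0.0571 by limma-voom, -0.17 without control library 2 and -0.56 without mutant library 3. Kcnk7 was at 0.0984 without control library 3 and 0.27 without mutant library 3, and Kcnc4 and Kcnk3 at -0.24 and -0.12 without mutant library 1. Summed CPM of the subfamilies moved by less than 1 SD under both other scalings. No paired analysis was possible because the labels give no replicate numbers shared between the groups. Depth limits the 13 untested members and the folds of Kcnj4 and Kcnh3, which had few control counts.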
